A study of Homo sapiens with 12 samples.

Results

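The comparison described here sets IMR90 cells grown on a soft surface against IMR90 cells grown on plastic, all after the higher of 2 doxorubicin doses. IMR90 is an established human fetal lung fibroblast line, of wild-type genotype per the labels. Its members were chosen by label alone: the 3 libraries of 2 kPa hydrogel culture with 250 nM doxorubicin and the 3 libraries of plastic culture with 250 nM doxorubicin, 6 of the 12 libraries in the series. The other 6 are the same culture surfaces at 100 nM. All 4 groups received doxorubicin, a DNA-damaging topoisomerase poison, for 24 hours and were then kept in culture for at least 8 days so that senescence could develop, and no untreated library was analysed here. The labels differ among themselves on 2 points: the sample titles give the dose in nM and the treatment text in μM, and the titles speak of a hydrogel where the growth text speaks of PDMS-coated plates. The groups are named by the titles below. Nothing in the labels says whether the 3 replicates of a group came from separate cultures, so p-values measure the spread between these libraries, which may be technical. All are from 1 cell line and hence 1 genetic background.

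Fibroblasts sense how stiff their surroundings are through integrins, focal adhesions and actin tension, and on stiff surfaces they tend to make more collagen and contractile proteins. Type I collagen, the main fibre of connective tissue, is a trimer of the COL1A1 and COL1A2 chains. Senescent fibroblasts have left the cell cycle for good and secrete cytokines, proteases and growth factor binding proteins, the senescence-associated secretory phenotype. Cells make cholesterol through the mevalonate pathway, whose genes are switched on together by the transcription factor SREBP2 when sterols in the endoplasmic reticulum run low.

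Counts are the authors' RSEM expected counts per gene. They summed to between 2229060 and 2730293 per library at 250 nM and to between 5887051 and 7351904 at 100 nM, so the 250 nM comparison has less depth. CPM below is the count scaled by the TMM library size, and TPM is the authors' length-scaled value. All 12 fibroblast markers were tested, and summed to 11336 to 14782 CPM on plastic and 9580 to 11217 CPM on gel. The sum was mostly FN1, with a mean of 8040 CPM. Of the 12 markers, 11 had negative log2 fold changes, gel over plastic, beside 51.9% of all genes tested. Their median was -0.73 (-0.91 without gel replicate 1). Of the 14 leukocyte markers 8 had no count in these 6 libraries (among them CD3E, CD14, TYROBP, ITGAM, CSF1R, AIF1 and NKG7) and the whole list summed to at most 4.14 CPM. Endothelial markers summed to 50.7 to 69.9 CPM on plastic and 30.6 to 39.3 CPM on gel, TEK being the highest and TIE1 and CLDN5 at 0. Of the 14 epithelial markers 5 were at 0 (KRT5, SFTPC, SFTPB, SCGB1A1 and FOXJ1), and the list, mostly KRT18, overlapped between the groups at 96 to 224 CPM on plastic and 118 to 172 CPM on gel.

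Gel replicate 1 stood apart from the other 5 libraries. The first principal component, 51.6% of the variance, placed it at -114.0 and the others between 17.8 and 27.5. Counts were found for 14401 genes in this library and for 16119 to 17337 in the others, although its total was the second highest of the 6. Mitochondrial mRNAs took 8.11% of its protein-coding counts (95% Wilson interval 8.08 to 8.15, counting error only) against 4.24 to 5.12% in the others. Ribosomal repeat loci took 13.2% of all its counts (13.1 to 13.2) against 24.2 to 27.4%. Its deviation from gel replicates 2 and 3 went partly with base composition (Pearson correlation with GC content 0.26 across genes). The median was -0.39 on the log2 scale in the fifth of genes with the lowest transcript GC content and 0.44 in the fifth with the highest. Between gel replicates 2 and 3 and plastic, the same 2 medians were -0.01 and 0.10. List medians are therefore given with and without gel replicate 1, as are the values of many single genes. Plastic replicate 1 also lay away from its group, at -52.6 on the second component (16.2% of the variance), against -8.3 and -4.1 for plastic replicates 2 and 3.

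**Figure D1:**
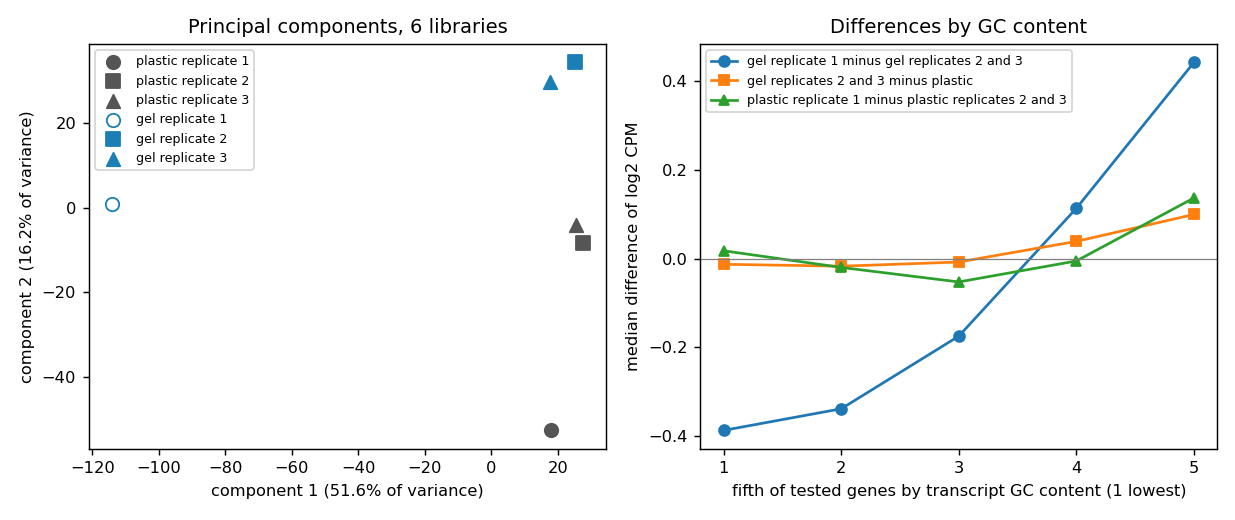
Left, the 6 libraries on the first 2 principal components of log2 CPM, with gel replicate 1 (open circle) alone at -114.0 on the first. Right, medians of 3 differences of log2 CPM in 5 equal bins of the tested genes by GC content of the longest GENCODE 29 transcript; the line for gel replicate 1 runs from -0.39 to 0.44, and the other 2 lines stay near 0.

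COL1A1 mRNA fell on gel, and it was the only gene to pass the test. Across 12329 genes tested, edgeR's quasi-likelihood test with Benjamini-Hochberg adjustment (threshold 0.05) called 1 gene, 0.00811% of those tested. COL1A1, the α1 chain of type I collagen (ENSG00000108821, GRCh38 chr17:50183289-50201632), stood at 1989, 2628 and 2423 CPM in the plastic libraries and at 445, 615 and 729 CPM in the gel libraries. The lowest plastic library was thus well above the highest gel library. In TPM it was 413 ± 35.9 in the plastic group and 114 ± 22.9 in the gel group (SD, 3 libraries each, n = 3). The fold change was 3.94-fold lower on gel (log2 -1.98, SE 0.21, adjusted p = 0.00313). Without gel replicate 1 it was -1.83 on the log2 scale, with an adjusted p of 0.00286 (edgeR). At 100 nM the gel effect was again -1.83 (edgeR adjusted p = 0.00329), in libraries that share no sample with the 250 nM ones. When only the 6 libraries at 250 nM were fitted, the COL1A1 estimate was -1.96 and missed the threshold (edgeR adjusted p = 0.128). In bulk RNA, fewer cells of a kind and less RNA per cell cannot be told apart.

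The partner chain COL1A2 (ENSG00000164692, chr7:94394561-94431232) had 817, 820 and 777 CPM on plastic and 195, 343 and 341 CPM on gel. The groups did not overlap, and gel replicate 1 was the lowest. Its log2 fold change of -1.46 (SE 0.23) missed the threshold with all 6 libraries (edgeR adjusted p = 0.0808). Without gel replicate 1 it passed, at -1.26 (edgeR adjusted p = 0.0473), and with COL1A1 made up the 2 genes (0.0162%) called in that fit. In TPM, COL1A2 was 227 ± 50.1 in the plastic group and 90.6 ± 37.9 in the gel group (SD, n = 3).

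Other fibril-forming and interstitial matrix genes leaned the same way. Of 41 genes in the list, 34 had enough counts to be tested, 1 was called, 27 had negative and 7 positive log2 fold changes. At an unadjusted p under 0.05, which describes but does not call, 15 were lower and 1 was higher on gel; 4.57% and 5.45% of all tested genes did so. The 3 gel libraries lay below all 3 plastic libraries for 14 of the 34 and above them for 1, against 7.62% and 7.45% of all genes. The list's median log2 fold change was -0.57 (-0.49 without gel replicate 1), beside -0.02 over all genes tested.

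COL3A1, the chain of type III collagen, had 102, 61.5 and 53.8 CPM on plastic and 34.7, 12.1 and 12.2 CPM on gel. Here gel replicate 1 was the highest of the gel libraries, and plastic replicate 1 the highest on plastic. The log2 fold change was -1.85 with all libraries (edgeR adjusted p = 0.217) and -2.60 without gel replicate 1 (edgeR adjusted p = 0.0722). COL5A2, a chain of type V collagen, which lies inside type I fibrils, had 186, 103 and 93.9 CPM on plastic and 44.0, 45.6 and 39.2 CPM on gel (log2 -1.57, edgeR adjusted p = 0.201; -1.62 without gel replicate 1). Its other chain COL5A1 had 109, 109 and 115 CPM on plastic and 42.0, 67.5 and 69.1 CPM on gel. For both chains the groups stood apart.

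SPARC, a secreted collagen-binding glycoprotein, had 871, 1033 and 947 CPM on plastic and 449, 505 and 536 CPM on gel. These are close replicates for a log2 fold change of -0.94 (SE 0.20; -0.89 without gel replicate 1), and the edgeR adjusted p was still 0.201. DCN encodes decorin, a small proteoglycan that coats collagen fibrils. It had 190, 125 and 119 CPM on plastic and 55.5, 74.3 and 53.9 CPM on gel (log2 -1.24, edgeR adjusted p = 0.201; -1.20 without gel replicate 1). LUM, the related lumican, had 67.9, 53.5 and 49.9 CPM on plastic and 44.9, 33.0 and 33.7 CPM on gel, a smaller gap of -0.61. POSTN, the matricellular protein periostin, had 27.3, 16.4 and 12.6 CPM against 10.6, 6.31 and 6.74 CPM.

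The matrix list was not uniform. FN1, fibronectin, had 6007, 9719 and 8873 CPM on plastic and 7811, 7524 and 8305 CPM on gel, so that all gel values lay inside the plastic range (log2 -0.06, SE 0.22). TGFBI, a TGF-beta-induced adhesion protein, overlapped at 1832, 3659 and 3417 CPM against 1623, 2481 and 2854 CPM. The microfibril gene FBN1 had 150, 158 and 160 CPM on plastic and 52.9, 111 and 132 CPM on gel. There gel replicate 1 was far below the other gel libraries, and the log2 fold change moved from -0.66 to -0.38 without it. COL6A3 moved likewise from -0.77 to -0.42. COL6A1 moved the other way, from -0.30 to -0.88; gel replicate 1 had 721 CPM and gel replicates 2 and 3 had 298 and 303 CPM.

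**Figure D2:**
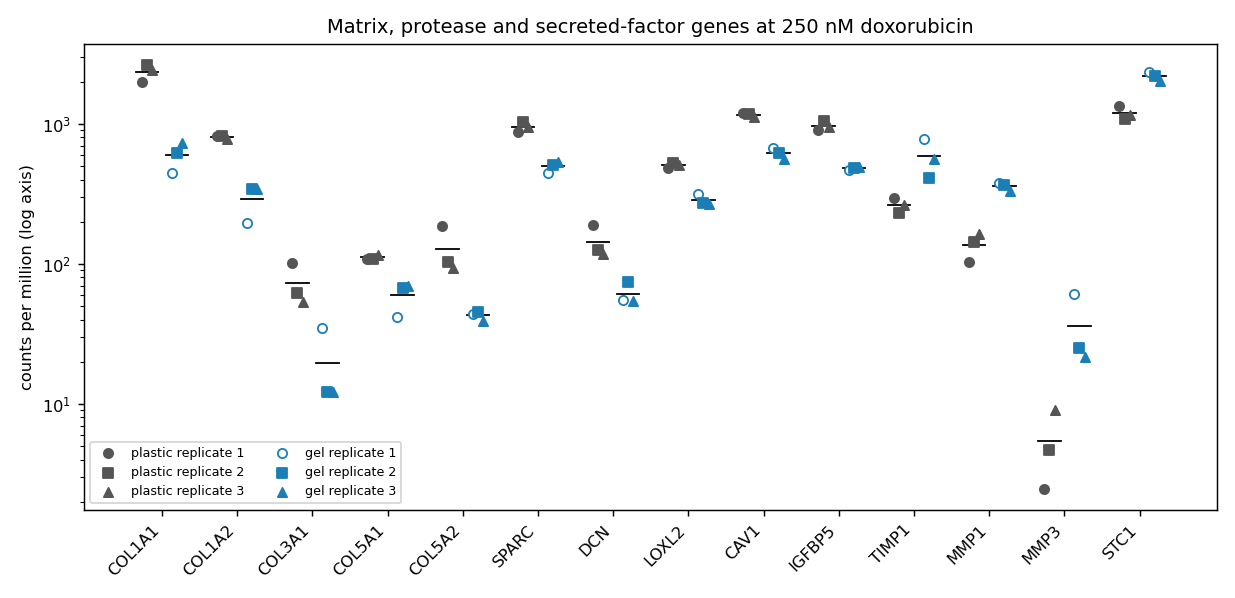
CPM (log axis) of 14 matrix, caveolar, protease and secreted-factor genes in each library; black bars are group means, n = 3, and the open circle is gel replicate 1. In every gene shown the 3 gel libraries lie on 1 side of the 3 plastic libraries. The genes were chosen with their values known, so this separation reflects the choice. FN1, TGFBI, TIMP3 and CAVIN1, which overlapped, are not drawn. COL1A1 runs from 1989 to 2628 on plastic and from 445 to 729 on gel.

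Among genes that fold, trim and crosslink collagen, of 23 tested, none was called (edgeR). At an unadjusted p under 0.05, 4 were lower and none was higher, beside 4.57% and 5.45% of all genes. The list's median was -0.11. Without gel replicate 1 it was -0.21, with 4 lower and 1 higher, beside 5.06% and 3.28% of all genes. With all libraries the 4 were ADAMTS2, LOX, LOXL2 and SERPINH1. ADAMTS2, which cuts off the procollagen N-propeptide, had 31.0, 43.7 and 26.3 CPM against 17.2, 15.1 and 14.7 CPM. LOX and LOXL2 are crosslinking lysyl oxidases, and SERPINH1 is a collagen chaperone. LOXL2 had 480, 529 and 510 CPM on plastic and 314, 272 and 269 CPM on gel (log2 -0.83, SE 0.17, edgeR adjusted p = 0.201). LOX had 300, 357 and 357 CPM on plastic and 110, 238 and 222 CPM on gel, where gel replicate 1 again was the lowest. The prolyl and lysyl hydroxylases P4HA1 and PLOD2 split the gel group: P4HA1 had 62.5 CPM in gel replicate 1 and 321 and 253 CPM in the others, with 212, 235 and 238 CPM on plastic. PLOD2 had 13.5 CPM in gel replicate 1 and 180 and 166 CPM in the others. Both are hypoxia-inducible genes.

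Among basement membrane genes, COL4A1, the α1 chain of type IV collagen, had 150, 169 and 134 CPM on plastic and 82.6, 86.9 and 77.1 CPM on gel (log2 -0.87, edgeR adjusted p = 0.219). NID1, which links laminin to type IV collagen, had 27.3, 17.8 and 20.8 CPM against 10.5 to 10.9 CPM. The 16 tested members had a median of -0.33 (-0.23 without gel replicate 1), none called. The sums of endothelial markers given above, which were also lower on gel, are values beside these; their part in the result was not tested.

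Matrix-degrading enzymes and their inhibitors pointed in both directions. None of 25 tested was called (edgeR). At an unadjusted p under 0.05, 6 were higher and 3 lower, beside 5.45% and 4.57% of all genes. The groups stood apart for 7 higher and 4 lower, beside 7.45% and 7.62% of all genes. The list's median was 0.0028, and 0.11 without gel replicate 1. MMP1, the interstitial collagenase, had 103, 143 and 163 CPM on plastic and 379, 364 and 334 CPM on gel (log2 1.39, SE 0.29, edgeR adjusted p = 0.201). Every gel library was above every plastic library, and the value without gel replicate 1 was 1.33. MMP3, stromelysin-1, had 2.48, 4.69 and 9.03 CPM on plastic and 60.5, 25.2 and 21.5 CPM on gel (log2 2.72, SE 0.93, edgeR adjusted p = 0.332; 2.07 without gel replicate 1). TIMP1, an inhibitor of these proteases, was on the same side, with 298, 231 and 265 CPM on plastic and 787, 411 and 559 CPM on gel. TIMP3 had 1367, 2753 and 2673 CPM against 760, 2562 and 2406 CPM, which overlap. CEMIP, which takes part in hyaluronan breakdown, had 11.2, 10.8 and 13.0 CPM on plastic and 1.98, 2.43 and 0.421 CPM on gel (log2 -2.84, SE 0.68, edgeR adjusted p = 0.217). ADAM10, a membrane sheddase, had 89.8, 94.8 and 88.4 CPM against 55.8, 52.4 and 59.8 CPM.

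Caveolae are membrane pits that flatten under tension. CAV1, their main coat protein, had 1195, 1168 and 1122 CPM on plastic and 671, 620 and 558 CPM on gel (log2 -0.92, SE 0.17, edgeR adjusted p = 0.144; -1.01 and 0.0625 without gel replicate 1). Its partner CAV2 had 275, 306 and 275 CPM against 212, 219 and 216 CPM. CAVIN1, the other main coat component, overlapped at 1644, 2155 and 2206 CPM against 1190, 2065 and 1684 CPM. Of 8 tested caveolar genes 7 were negative, 2 at an unadjusted p under 0.05, with a median of -0.24. Without gel replicate 1 the median was -0.33 and 1 gene had such a p. Among all genes tested, 51.9% were negative and 4.57% were lower at that p with all libraries.

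Contractile genes and targets of serum response factor, the actin-sensing transcription factor, were mostly below their plastic values on gel. Of 33 tested, 27 had negative log2 fold changes, 7 of them at an unadjusted p under 0.05. The median was -0.31 (-0.22 without gel replicate 1). None was called (edgeR). Among all genes tested, 51.9% were negative and 4.57% were lower at that p. The 10 pericyte and smooth muscle markers, of which 5 were tested and none was at 0, summed to 236 to 318 CPM on plastic and 199 to 269 CPM on gel. Of the 5, 4 were negative, with a median of -0.33 (-0.03 without gel replicate 1); their part in the result was not tested. ACTA2, smooth-muscle actin and the usual marker of myofibroblasts, had 305, 426 and 403 CPM on plastic and 147, 195 and 196 CPM on gel (log2 -1.08, SE 0.35, edgeR adjusted p = 0.320; -0.98 without gel replicate 1). The gel libraries lay below the plastic ones also for ACTG2 (106, 137 and 145 CPM against 67.1, 69.9 and 73.3 CPM) and for the myosin light chain kinase MYLK (677, 684 and 609 CPM against 513, 369 and 382 CPM). In LMOD1 and MYH10 the size of the gap rested partly on gel replicate 1. LMOD1 had 1.32 CPM there, 17.0 and 16.9 CPM in the other gel libraries, and 27.7 to 42.7 CPM on plastic. MYH10 had 10.2, 34.0 and 38.3 CPM on gel and 57.3 to 60.9 CPM on plastic. The other gel libraries also lay below plastic in both genes. The MYH10 log2 fold change moved from -1.13 to -0.75 without gel replicate 1. Zyxin, ZYX, a focal adhesion protein, was on the other side, with 15.7, 12.7 and 14.1 CPM on plastic and 25.1, 25.7 and 38.3 CPM on gel.

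YAP and TAZ are cofactors that enter the nucleus in spread, tense cells. Of 22 of their targets tested, 18 were negative, 5 at an unadjusted p under 0.05 and none positive at it. The groups stood apart for 11 lower and 1 higher, and the median was -0.34 (-0.44 without gel replicate 1). Of all genes tested, 51.9% were negative, and 4.57% were lower and 5.45% higher at that p. The groups stood apart for 7.62% lower and 7.45% higher. CCN2, the connective tissue growth factor and a standard target, had 377, 463 and 459 CPM on plastic and 245, 317 and 327 CPM on gel. CCN1 had 339, 288 and 303 CPM against 278, 152 and 201 CPM. ANKRD1, another standard target, differed more within groups than between them, with 39.7, 215 and 254 CPM against 18.5, 207 and 223 CPM: replicate 1 was low on both surfaces. Integrins and focal adhesion genes (22 tested, median -0.07, and -0.06 without gel replicate 1) and genes of TGF-beta signalling (23 tested, median 0.02, and 0.03 without it) had medians close to that of all genes. Within the latter, SMAD7, the feedback inhibitor of the pathway, had 12, 16.4 and 12.2 CPM on plastic and 26.8, 25.7 and 32 CPM on gel (log2 1.06, SE 0.23, edgeR adjusted p = 0.201).

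Genes of cholesterol synthesis had higher values on gel nearly throughout the pathway, and promoters are shown here because members that stand on 1 side together invite a look at the sequence they share. For 18 of the 25 genes in the list RefSeq gave a promoter window, 250 bases before to 50 after the start of transcription (GRCh38.p14; the first start listed per symbol). CCAAT, the box bound by NF-Y, was in 15 of 18 (83.3%), against 35.7% of all 27305 windows; both strands were searched. CACNCCAC, the core of a sterol regulatory element, was in 3 of 18 (16.7%), against 5.74% of all. The search for CCAAT was added after the expression values were known. A match is only a description of these letters. The 250 bases before the start are printed for 3 genes of the pathway with large differences and for INSIG1, which holds the sterol regulatory core; capitals mark CCAAT or its complement ATTGG and, in INSIG1, also the complement of the CACNCCAC core.
HMGCS1 (chr5:43313413-43313662, minus strand): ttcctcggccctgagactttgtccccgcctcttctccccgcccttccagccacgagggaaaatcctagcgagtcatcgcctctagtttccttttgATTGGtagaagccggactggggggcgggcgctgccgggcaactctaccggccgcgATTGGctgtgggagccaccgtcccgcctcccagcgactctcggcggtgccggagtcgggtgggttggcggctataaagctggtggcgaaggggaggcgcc
MVD (chr16:88663092-88663341, minus strand): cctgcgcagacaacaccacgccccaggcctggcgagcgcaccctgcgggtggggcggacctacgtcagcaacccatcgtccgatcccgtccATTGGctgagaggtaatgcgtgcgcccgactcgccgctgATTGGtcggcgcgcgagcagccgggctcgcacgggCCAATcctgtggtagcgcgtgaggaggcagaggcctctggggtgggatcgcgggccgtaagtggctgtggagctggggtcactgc
MSMO1 (chr4:165327419-165327668, plus strand): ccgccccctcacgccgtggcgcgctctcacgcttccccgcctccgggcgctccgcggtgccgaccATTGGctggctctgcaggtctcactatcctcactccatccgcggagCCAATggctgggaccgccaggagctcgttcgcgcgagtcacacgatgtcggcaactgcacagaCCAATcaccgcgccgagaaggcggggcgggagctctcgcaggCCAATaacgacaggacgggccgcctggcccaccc
INSIG1 (chr7:155297628-155297877, plus strand): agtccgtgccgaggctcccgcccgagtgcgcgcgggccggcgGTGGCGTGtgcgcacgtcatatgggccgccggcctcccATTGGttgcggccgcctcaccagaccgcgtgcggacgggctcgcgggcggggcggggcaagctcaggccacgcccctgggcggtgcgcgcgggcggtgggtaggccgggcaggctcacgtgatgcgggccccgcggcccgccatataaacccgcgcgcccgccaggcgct

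Of 24 cholesterol genes tested, 23 had positive log2 fold changes and 1 (LSS) a negative one. At an unadjusted p under 0.05, 14 were higher and none lower, beside 5.45% and 4.57% of all genes. The 3 gel libraries lay above the 3 plastic libraries for 13 and below them for none, beside 7.45% and 7.62% of all genes. None of the 24 passed the adjusted threshold (edgeR). The median was 0.75, and it was 0.76 without gel replicate 1; then 22 were positive, 14 of them at an unadjusted p under 0.05, beside 3.28% of all genes higher and 5.06% lower by the same measure in that fit. Per library, the members' median difference from the plastic mean was -0.01, 0.09 and 0.03 on plastic and 0.56, 0.78 and 0.77 on gel, on the log2 scale.

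In the early, mevalonate steps, HMGCS1, which makes HMG-CoA, had 51.3, 36.1 and 43.6 CPM on plastic and 82, 74.3 and 87.2 CPM on gel (log2 0.89, SE 0.19, edgeR adjusted p = 0.201). MVD, the decarboxylase that yields isopentenyl diphosphate, had 7.45, 7.51 and 5.89 CPM against 20.8, 18.5 and 14.7 CPM (log2 1.38, SE 0.31, edgeR adjusted p = 0.204). In these genes every gel library was above every plastic library, as also in IDI1, FDPS and MVK.

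In the sterol steps, SQLE, squalene epoxidase, had 72.4, 91.1 and 84.8 CPM on plastic and 133, 139 and 128 CPM on gel (log2 0.69, SE 0.17, edgeR adjusted p = 0.218). MSMO1, the C4-methylsterol oxidase, had 62.1, 71.8 and 73.8 CPM against 96.5, 159 and 150 CPM. CYP51A1, lanosterol demethylase, stood out in gel replicate 1, with 44.9 CPM there, 125 CPM in each of the other gel libraries and 65.8, 69.5 and 68.7 CPM on plastic. INSIG1, the sterol-sensing anchor of the SREBP complex, had 31.9, 19.2 and 21.2 CPM against 32.4, 41.8 and 50.1 CPM.

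**Figure D3:**
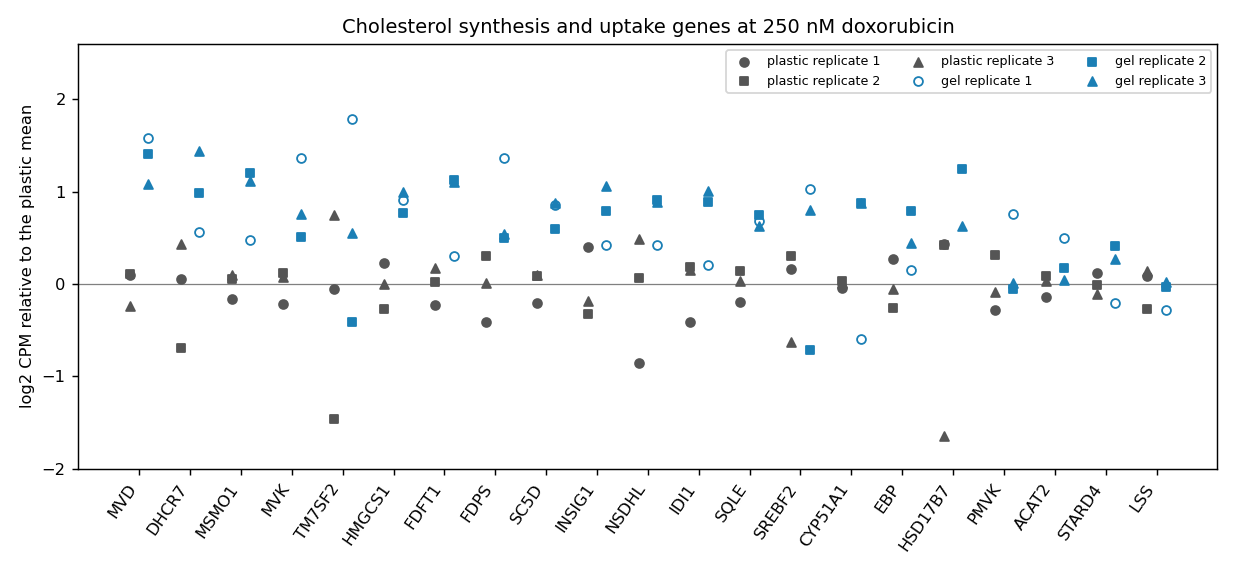
Log2 CPM of 21 of the tested cholesterol genes in each library relative to the plastic mean of the gene, ordered by fold change; grey marks are plastic, blue marks gel, the open circle gel replicate 1. Counts of 0 are not drawn (HSD17B7 in gel replicate 1). Most blue marks lie above 0, and LSS at the right is the 1 gene with a negative fold change.

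Among fatty acid genes, controlled mainly by SREBP1, of 20 tested 12 were positive, 3 at an unadjusted p under 0.05 and none negative at it, with a median of 0.20. The median was 0.14 without gel replicate 1, when 1 gene was higher at that p. Among all genes tested, 48.0% were positive with all libraries. At that p, 5.45% were higher with all libraries and 3.28% without gel replicate 1. FASN, fatty acid synthase, had 76.1, 71.4 and 78.9 CPM on plastic and 95.2, 115 and 104 CPM on gel (log2 0.47). SCD, the main desaturase, had 95.6, 99.5 and 93.1 CPM against 100, 125 and 131 CPM. SREBF1 itself overlapped (77.8, 71.8 and 61.7 CPM against 92.5, 54.4 and 46.8 CPM). No gene of cholesterol export and storage (11 tested) or of lipid droplets (15 tested) was called (edgeR). The export median was -0.10, and -0.03 without gel replicate 1. The lipid droplet median was 0.15 with 11 positive and 4 negative genes, and turned to -0.03 with 7 and 8 without that library.

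Among secreted factors of senescent cells, the insulin-like growth factor binding protein IGFBP5 had 910, 1045 and 949 CPM on plastic and 472, 487 and 491 CPM on gel. Both groups were tight, gel replicate 1 included, and the log2 fold change was -1.0 (SE 0.16, edgeR adjusted p = 0.0808; 0.0533 without gel replicate 1). STC1, the glycoprotein hormone stanniocalcin-1, had 1351, 1088 and 1155 CPM against 2341, 2212 and 2016 CPM (log2 0.87, SE 0.29, edgeR adjusted p = 0.325). The whole list of growth factors and binding proteins (29 tested) had 14 positive and 15 negative members and a median of -0.23 (-0.21 without gel replicate 1). IGFBP3 was low in replicate 1 on both surfaces (82.8, 355 and 388 CPM against 18.8, 157 and 161 CPM).

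The cytokine list depended on gel replicate 1. Its 14 tested members had a median of 0.63 with that library and 0.10 without it. CXCL8, interleukin-8, had 11.6, 0.939 and 2.36 CPM on plastic and 95.8, 5.34 and 5.06 CPM on gel, and its log2 fold change moved from 2.84 (SE 1.47) to 0.02. IL1B had 4.14, 1.88 and 1.18 CPM against 19.2, 6.31 and 3.79 CPM. CCL2 overlapped, at 2.07, 2.82 and 3.53 CPM against 2.31, 1.94 and 2.11 CPM. IL6 was too low to test, with 1, 0 and 2 counts on plastic and none on gel. Targets of NF-kB (18 tested), the transcription factor behind much of this secretion, had a median of 0.19 that turned to -0.40 without gel replicate 1. MIF was the 1 member of the cytokine list whose gel libraries all lay above plastic, at 159, 106 and 135 CPM against 420, 194 and 258 CPM. In 2 members they all lay below plastic, among them IL32, at 8.28, 9.86 and 7.07 CPM against 4.63, 3.88 and 6.32 CPM. Beside this 1 and these 2 of 14 members, 7.45% of all genes tested stood apart above plastic and 7.62% below.

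Most cell-cycle genes had lower values on gel. Of 42 tested, 35 were negative, 12 at an unadjusted p under 0.05, with a median of -0.70, and 11 stood apart below plastic. None was called (edgeR). Over all genes tested, 51.9% were negative, 4.57% were lower at that p and 7.62% stood apart below plastic. MKI67, the proliferation antigen, had 40.1, 9.86 and 10.2 CPM on plastic and 6.28, 1.94 and 5.90 CPM on gel. RRM2, a ribonucleotide reductase subunit, had 51.7, 23.0 and 14.9 CPM against 10.9, 4.37 and 9.69 CPM. TOP2A, the topoisomerase that doxorubicin poisons, had 182, 75.1 and 49.9 CPM against 75.3, 23.3 and 25.3 CPM. Plastic replicate 1 was the highest of the 6 in these genes. The members' median difference from the plastic mean was 0.86, -0.22 and -0.55 on plastic and -0.21, -1.08 and -0.95 on gel, so the groups overlapped. The list's median was -0.11 without plastic replicate 1 and -1.25 without gel replicate 1.

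Of the cell-cycle inhibitors, CDKN1A (p21), induced by p53 after DNA damage, had 797, 543 and 625 CPM on plastic and 1299, 1129 and 1219 CPM on gel (log2 0.89, SE 0.22, edgeR adjusted p = 0.218; 0.82 without gel replicate 1). CDKN2B (p15) had 6.21, 11.7 and 11.8 CPM against 16.5, 17.0 and 16.9 CPM. CDKN2A, which encodes p16, overlapped at 6.21, 31.9 and 40.4 CPM against 16.5, 42.7 and 41.3 CPM. LMNB1, lamin B1, which is lost in senescence, had 9.93, 3.29 and 1.18 CPM against 9.91, 0.971 and 3.37 CPM. The 34 p53 targets tested, CDKN1A among them, had a median of 0.19 (0.11 without gel replicate 1), with MDM2 at 217, 161 and 166 CPM against 268, 133 and 155 CPM.

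Interferon-stimulated genes, mostly antiviral effectors, were below plastic in 24 of 29 tested, 8 at an unadjusted p under 0.05. The median was -0.55, and none was called (edgeR). Over all genes tested, 51.9% were negative and 4.57% were lower at that p. Without gel replicate 1 all 29 interferon-stimulated genes were negative and their median was -0.96. IFIT5 had 17.0, 14.6 and 15.7 CPM on plastic and 5.95, 6.80 and 9.69 CPM on gel, and SAMD9 had 38.1, 25.3 and 31.4 CPM against 15.2, 12.6 and 20.2 CPM. STAT2, part of the interferon-activated transcription complex, had 60.0, 68.5 and 66.8 CPM against 59.2, 45.2 and 35.8 CPM. IFI6 was highest in replicate 1 on both surfaces, with 47.2, 12.2 and 15.7 CPM on plastic and 57.5, 5.34 and 13.1 CPM on gel. The list's median per library was 0.57, -0.30 and -0.20 on plastic and -0.24, -1.05 and -0.80 on gel, and the fitted median was -0.23 without plastic replicate 1. GAAANNGAA, the core of the interferon-stimulated response element, was in the RefSeq promoter windows of 21 of 34 members found (61.8%), against 8.29% of all windows, searched on both strands. The 34 include members with too few counts to test. The list was drawn up from interferon-stimulated genes, so this share describes the list and not gel against plastic.

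Targets of NRF2, the regulator of antioxidant genes, were positive in 20 of 25 tested, 6 at an unadjusted p under 0.05. The median was 0.32 (0.20 without gel replicate 1). Over all genes tested, 48.0% were positive and 5.45% were higher at that p. NQO1, a quinone reductase, had 41.8, 37.1 and 30.6 CPM on plastic and 52.9, 54.9 and 72.5 CPM on gel (log2 0.72, SE 0.20, edgeR adjusted p = 0.273). GCLM, a subunit of the enzyme that begins glutathione synthesis, had 26.5, 26.3 and 29.5 CPM against 53.2, 32 and 44.7 CPM, whereas the catalytic subunit GCLC had 30.2, 26.3 and 32.2 CPM against 22.1, 19.4 and 22.3 CPM. TGACNNNGC, the core of the antioxidant response element, was in 5 of 21 promoter windows of the list (23.8%), against 13.6% of all, on either strand. That share, too, describes the list and not gel against plastic.

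Nuclear genes of oxidative phosphorylation, mitochondrially encoded mRNAs and ribosomal protein genes had positive medians that shrank without gel replicate 1: from 0.22 to 0.08 over 43 genes, from 0.39 to 0.14 over 13 and from 0.19 to 0.09 over 78. UQCRQ, a complex III subunit, had 436, 490 and 499 CPM on plastic and 1451, 540 and 493 CPM on gel. NDUFS7, of complex I, did not depend on that library, with 9.52, 9.39 and 9.43 CPM against 19.5, 17.0 and 16.4 CPM. The library's share of mitochondrial counts, given above, is counted over the same genes as the mitochondrially encoded list and is no separate observation. The library's GC slope, also given above, is a value beside these lists, and its part in the result was not tested.

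**Figure D4:**
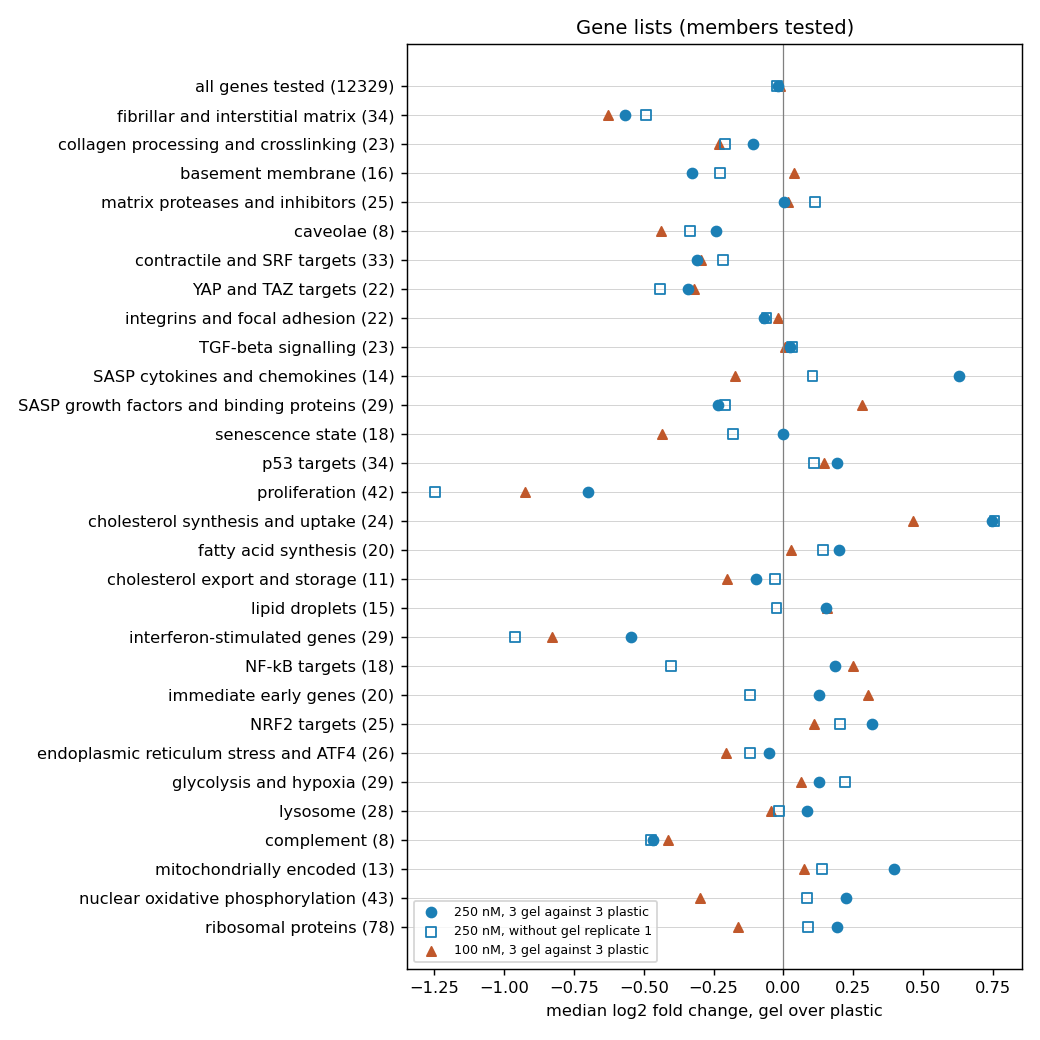
Median log2 fold change, gel over plastic, of each gene list (number tested in brackets) at 250 nM with all libraries (filled circles), at 250 nM without gel replicate 1 (open squares) and at 100 nM (triangles). The fibrillar matrix list lies at -0.57, -0.49 and -0.63 and the cholesterol list at 0.75, 0.76 and 0.46, and the NF-kB list moves from 0.19 to -0.40 without gel replicate 1.

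Among protein-coding genes of at least 10 CPM that stood apart at an unadjusted p under 0.05, the 10 with the largest higher values and the 10 with the largest lower values are described by where gel replicate 1 lay. In 9 of the 10 higher genes it was the highest gel library, by more than 1.5 times the next. The fold change and the mean CPM that chose these genes both include gel replicate 1, so the choice itself favours such genes. BAX reached a mean of 10 CPM only through that library. PHPT1 (chr9:136848724-136851027), a histidine phosphatase, had 16.6, 17.4 and 12.2 CPM on plastic and 121, 32.5 and 39.6 CPM on gel. STUB1, a ubiquitin ligase, had 10.3, 3.76 and 14.5 CPM against 103, 21.4 and 37.9 CPM, and BAX, the pro-apoptotic effector, 2.07, 2.82 and 1.57 CPM against 47.6, 4.37 and 2.95 CPM. The log2 fold change went, without that library, from 2.08 to 1.21 for PHPT1, from 2.49 to 1.59 for STUB1 and from 3.13 to 0.74 for BAX. The exception, AC120057.2, overlaps the annotated spans of GABARAP and CTDNEP1, so its share of their reads is uncertain (4.14, 0 and 0 CPM against 31.7, 42.2 and 22.8 CPM). Of the 10 higher genes 7 had negative log2 fold changes at 100 nM.

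In the 10 lower genes, gel replicate 1 was the lowest gel library for 4, and all 10 were negative at 100 nM. Besides COL1A1 and COL3A1 they were TRO, GALNT15, PLXDC2, WNT16, RRM2, CLSPN, LRRN3 and MKI67. TRO, an adhesion protein of the MAGE family, had 23.2, 23.9 and 18.1 CPM on plastic and 4.30, 9.23 and 5.90 CPM on gel (log2 -1.77, SE 0.33, edgeR adjusted p = 0.144). WNT16, a Wnt ligand linked to senescence, had 31.9, 38.0 and 44.0 CPM against 5.95, 12.6 and 15.6 CPM (log2 -1.76). GALNT15, which adds the first sugar of mucin-type glycans, had 17.4, 28.6 and 34.2 CPM against 9.91, 5.83 and 7.59 CPM. None of these but COL1A1 was called (edgeR).

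The gel effect at 100 nM came from 6 other libraries, and the difference between the effects at both doses was tested for each gene. None of 12329 genes differed at the adjusted threshold (0%; 779 at an unadjusted p under 0.05; none with DESeq2, 855 unadjusted). Dose and library set cannot be told apart, because the names of the deposited tables mention molecular identifiers at 250 nM and not at 100 nM. At 100 nM 9 genes rose (0.073%) and 19 fell (0.154%) on gel by the same test. The 19 held 6 of the 34 matrix genes, which were COL1A1, COL1A2 (log2 -1.39, edgeR adjusted p = 0.0229), COL3A1 (-2.78, 0.0229), DCN (-2.10, 0.00533), SPARC (-1.19, 0.0242) and LUM (-2.06, 0.00329), and also CAV1 (-1.16, 0.0142), IGFBP5 (-0.96, 0.0229) and LOXL2 (-1.02, 0.0229). MMP1 (2.66, 0.00329), MMP3 (5.77, 0.0332) and STC1 (2.04, 0.0172) rose there.

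Of the 564 genes lower at 250 nM at an unadjusted p under 0.05, 453 (80.3%) were also negative at 100 nM, where 51.1% of all genes were negative. Of the 672 higher genes, 401 (59.7%) were positive at 100 nM, where 48.9% of all were. Differences between doses were computed for each gene described. They included LUM (250 nM minus 100 nM 1.45, unadjusted p = 0.00082, edgeR adjusted p = 0.75), MMP1 (-1.26, 0.0072, 0.75) and STC1 (-1.17, 0.013, 0.75), whose gel effects were larger at 100 nM, and MVD (1.15, 0.016, 0.75), whose effect was larger at 250 nM. None held after adjustment. For COL1A1 the difference was -0.14 (edgeR unadjusted p = 0.63) and for HMGCS1 0.07 (0.80). Ribosomal protein genes were positive in 63 of 78 at 250 nM (58 without gel replicate 1) and negative in 67 of 78 at 100 nM. Nuclear oxidative phosphorylation genes were positive in 32 of 43 (28 without it) and negative in 34 of 43. In each list 15 genes had an unadjusted p under 0.05 for the difference (edgeR), beside 779 of all 12329. That difference was fitted with gel replicate 1, without which the 250 nM medians shrank from 0.19 to 0.09 and from 0.22 to 0.08.

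**Figure D5:**
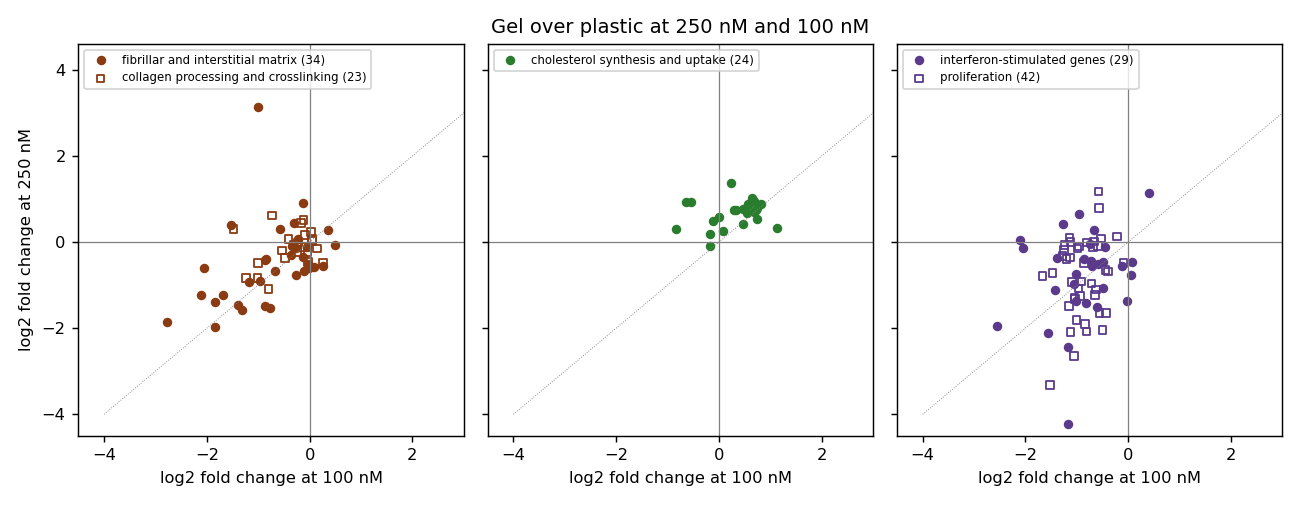
Log2 fold change, gel over plastic, at 250 nM against that at 100 nM for members of 5 lists (number tested in brackets); the dotted line marks equal effects. Most matrix genes lie at the lower left (27 of 34 negative at 250 nM, 30 of 34 at 100 nM), most cholesterol genes in the upper right (23 and 18 of 24 positive), and cell-cycle genes at the left (42 of 42 negative at 100 nM).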

How the data were processed

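Polyadenylated RNA of IMR90 cells was sequenced in 12 libraries, 3 libraries in each of 4 groups. Per the submitters' processing notes, Trimmomatic, STAR, RSEM and DESeq2 1.36.0 were used, with genome build GRCh38; for strandedness and molecular identifiers, the treatment is not stated. The deposited tables hold the authors' RSEM expected counts and TPM for 61541 gene identifiers in each library. Expected counts were rounded to whole numbers. Symbols came from a gene name table for 42045 identifiers and from GENCODE 29 for 16429 more, and 3067 have none.

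Genes passing edgeR's filterByExpr over the 4 groups were kept, scaled by TMM and fitted with edgeR 4.0.16 (glmQLFit and glmQLFTest, R 4.3.3) over all 12 libraries, with 1 coefficient per group and 8 residual degrees of freedom; p-values were adjusted over 12329 genes. Fold changes come from this fit, CPM from the scaled counts. The test was checked on simulated data. TPM served as an alternative on log2(TPM + 1) with limma 3.58.1, and DESeq2 1.42.0 as another.

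The groups, the 34 gene lists and the named genes were chosen with earlier results of these data known, and lists are described by counts and medians with no test. Genes named in the text are COL1A1 and other called genes, the 10 largest differences each way among protein-coding genes of at least 10 CPM whose groups stood apart at an unadjusted p under 0.05, up to 4 members a list of at least 5 CPM by p, and a core set; others from the lists were named after their values were seen. "Apart" means that the 3 gel libraries lie on 1 side of the 3 plastic ones. The precision of a log2 fold change is limited by 3 libraries a group: the median SE was 0.36. Results for 4 genes of the lists are not reported here by name; they remain in the counts and medians.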

Additional observations from a re-analysis of the deposited data

How the results depend on the processing

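The count of genes called at 250 nM, 1 with all 12 libraries in edgeR, depended on the test. It was 0 with the 6 libraries alone (728 at an unadjusted p under 0.05), 51 with those less gel replicate 1, and 163 with those under limma-voom with sample weights. It was 93 with DESeq2, 161 with limma-voom with sample weights over 12 libraries, 3 with limma-trend on log2(TPM + 1), 2 with upper-quartile scaling and 231 with no filter on low counts. With robust dispersions less gel replicate 1, chosen after seeing the data, it was 7. Leaving out each library in turn gave 1 to 2, with 2 without gel replicate 1 and 2 without gel replicate 2. For the difference between doses the count was 0 except with no filter, where it was 129. COL1A1 was called in 26 of 27 settings, at log2 -2.15 to -1.82, and COL1A2 in 8. The causes were not tested.

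Replicate numbers are shared between groups. Deviations from the group mean correlated at 0.11, 0.06 and 0.04 for same-numbered libraries. Plastic replicate 1 correlated best with gel replicate 1, and at -0.09 and -0.08 with gel replicates 2 and 3. Plastic replicates 2 and 3 did not correlate best with their own number. Whether same-numbered libraries share a source was not tested. With the replicate block, edgeR called 1 gene at 250 nM and 0 for the difference.

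Among the 119 genes named by rule, direction turned for 3. Over all genes it turned more often: without gel replicate 1, 9079 of 12311 genes kept the sign of their log2 fold change. CDKN2A ran from -0.12 to 0.82 when each library was left out in turn, FN1 from -0.24 to 0.083, and LMNB1 from -1.12 to 1.22. LMNB1 was also -0.092 with limma-voom with sample weights and -1.12 with robust dispersions less gel replicate 1. Low genes are the least certain: of the tested genes, 126 to 241 had 0 counts in each of the other 250 nM libraries and 46 to 73 in the deeper 100 nM libraries. Gel replicate 1 had 759, at a total that was not low. The lipid droplet median kept its sign in 21 of 26 alternatives, that of NF-kB targets in 20 and that of TGF-beta signalling in 18. The mitochondrially encoded list has no median when those genes are removed.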
